A study of Homo sapiens with 12 samples.

Results

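Caco-2 is an epithelial line from a human colorectal adenocarcinoma. The comparison was of Caco-2 cells transfected with the first of a pair of non-overlapping siRNAs against SIRT1 and the same cells transfected with a low-GC scrambled siRNA. It used the arrays titled KD1 1 and KD1 2 and the arrays titled siRNA control 1 and siRNA control 2, which are 4 of the 12 arrays of the study, and the cells were lysed 72 h after transfection. The other arrays held 2 samples of the second SIRT1 siRNA (KD2, also at 72 h), 3 of a plasmid expressing SIRT1 (OE Sirt1) and 3 of the pCMV-Neo vector (OE control), for which no time was given in the sources used here. The design text calls the siRNA samples duplicate biological replicates, all of 1 cell line, and no sample without any siRNA or plasmid was among the 12 arrays. Each array was an Illumina bead array, on which the brightness of a probe reports the amount of its transcript. Levels below are normalised log2 intensities of 1 probe per gene, so a level is set only against the same gene on other arrays.

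SIRT1 is an NAD-dependent deacetylase that removes acetyl groups from histones and from transcription factors such as p53, FOXO proteins and the p65 subunit of NF-kB. Small interfering RNA guides the RNA interference machinery to a matching transcript, which is then cut. Double-stranded RNA of any sequence can also be bound by sensors such as RIG-I, MDA5 and PKR, and interferon made downstream of them acts through JAK kinases on the transcription factor ISGF3, in which IRF9 is a DNA-binding subunit. ISGF3 binds the interferon-stimulated response element in the promoters of antiviral genes.

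Of the 20 genes past the threshold described below, 4 held the core letters of that element, GAAANNGAAA, read as TTTCNNTTTC on the other strand, in the 250 bases before their annotated start. Among the called interferon genes described below, HELZ2 and IRF9 held no match and IFIT2 had no promoter entry. The 4 sequences shown are those with a match, and they precede the genes among the 20 with the largest falls in the interferon group. They are RefSeq sequences of build GRCh38.p14, 5′ to 3′ on the strand of the gene, with matches in capitals; all 4 genes lie on the plus strand, IFI27 at chr14:94110486-94110735, IFIT1 at chr10:89392373-89392622, IFITM1 at chr11:313790-314039 and ISG15 at chr1:1013247-1013496.
IFI27: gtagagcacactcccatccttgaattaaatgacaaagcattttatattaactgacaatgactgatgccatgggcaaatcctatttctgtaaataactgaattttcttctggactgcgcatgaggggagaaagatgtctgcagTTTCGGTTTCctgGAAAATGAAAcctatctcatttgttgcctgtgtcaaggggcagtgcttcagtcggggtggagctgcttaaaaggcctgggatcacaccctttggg
IFIT1: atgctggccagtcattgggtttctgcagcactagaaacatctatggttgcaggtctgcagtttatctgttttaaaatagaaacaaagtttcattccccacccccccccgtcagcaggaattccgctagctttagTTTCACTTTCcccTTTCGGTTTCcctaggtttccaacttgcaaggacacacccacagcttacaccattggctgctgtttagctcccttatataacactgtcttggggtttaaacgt
IFITM1: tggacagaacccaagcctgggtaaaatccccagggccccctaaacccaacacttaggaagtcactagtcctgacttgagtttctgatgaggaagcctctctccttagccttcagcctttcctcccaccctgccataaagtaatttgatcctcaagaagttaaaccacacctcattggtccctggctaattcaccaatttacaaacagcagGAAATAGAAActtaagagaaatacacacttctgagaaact
ISG15: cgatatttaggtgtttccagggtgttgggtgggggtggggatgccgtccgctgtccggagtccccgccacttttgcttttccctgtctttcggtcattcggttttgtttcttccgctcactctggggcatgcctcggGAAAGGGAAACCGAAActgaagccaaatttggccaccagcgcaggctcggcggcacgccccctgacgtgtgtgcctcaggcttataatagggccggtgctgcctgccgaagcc
IFI27, IFIT1 and ISG15 held 2 matches each, which overlap in ISG15, and IFITM1 held 1. The matches of IFI27 began 108 and 95 bases before the start, those of IFIT1 116 and 103, those of ISG15 113 and 107, and that of IFITM1 40. A promoter entry was found for 16 of the 20 genes, so 25% of these held the motif, against 3.28% of the 9210 tested genes with an entry and 3.02% of all 35116 entries. Of the 31 tested genes of a list of interferon-induced effectors with an entry, 21 held it (67.7%). A match describes the letters only.

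The 4 arrays detected between 16717 and 17981 probes, 35.4% to 38.1% of those on the array. Across the 11458 genes tested, the KD1 arrays correlated at r = 0.984 with each other and the scrambled siRNA arrays at r = 0.992. KD1 1 stood apart: it correlated on average at 0.987 with the 6 plasmid arrays and 0.984 with the scrambled siRNA arrays, while the values for KD1 2 were 0.971 and 0.987. Genes are not independent replicates, so these values describe the arrays only. A difference of 2-fold or more separated the KD1 arrays on 218 genes (1.90%), 62 of them higher on KD1 1 and 156 higher on KD1 2, against 39 genes (0.34%) between the scrambled siRNA arrays and 216 (1.89%) between the KD2 arrays. For each gene, results are therefore given for each KD1 array as its level minus the mean of both scrambled siRNA arrays. A change is described as carried by both KD1 arrays where both deviations have the same sign and the smaller is at least 0.5 times the larger, and otherwise as carried mainly by the array with the larger deviation. By this rule 27.7% of all genes tested were carried by both arrays, 37.9% mainly by KD1 1 and 34.4% mainly by KD1 2.

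Markers of the line were present: of 20 epithelial and enterocyte markers 19 had a probe named for them here, and 18 of these were detected on at least 1 of the 4 arrays, LGALS4 being the exception. Endothelial markers were detected for 0 of 8 genes. Of 14 leukocyte markers 13 had a named probe and 7 were detected. Those detected included CD68 (9.34 and 9.38 on the scrambled siRNA arrays), CD74 (9.43 and 9.33) and CD14 (8.57 and 8.80). Those not detected included PTPRC, CD3E, CD3D, MS4A1, NKG7 and LAPTM5. Of 12 fibroblast markers 8 were detected, and DCN, THY1, FAP and POSTN were not. The summed log2 level of the 9 tested fibroblast markers was 74.7 and 75.5 with KD1, against 73.6 and 74.5 with scrambled siRNA, and COL3A1 and PDGFRA, described below, are among them. These 2 were higher with KD1, but the list was mixed: 5 members had log2 fold changes above 0 and 4 below, beside 50.9% of all genes below. The median deviation of the list was 0.06 on KD1 1 and -0.02 on KD1 2. The sum of the 6 tested leukocyte markers was 45.4 and 46.0 with KD1, against 47.8 and 48.1. The part of other cells in the results was not tested. Fewer cells of a kind and less RNA per cell cannot be told apart in such samples.

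SIRT1 itself was lower on both KD1 arrays. Its levels were 7.35 on KD1 1 and 7.33 on KD1 2, against 8.58 and 8.88 on the scrambled siRNA arrays. The groups did not overlap, and the KD1 arrays were closer to each other than the scrambled siRNA arrays were. The log2 fold change was -1.39 (SE 0.22, 95% interval -1.88 to -0.90), or 2.62-fold lower, with an adjusted p of 0.0472 in the limma fit over all 12 arrays. The KD1 1 deviation was -1.38 and that of KD1 2 was -1.40, so both arrays carried the fall. Leaving out any 1 of the 4 arrays kept the direction, at -1.54 to -1.24, and gave adjusted p-values of 0.130 to 0.362. With the second siRNA, SIRT1 stood at 7.87 and 7.18.

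In all, 20 genes passed an adjusted p of 0.05, which is 0.175% of the 11458 genes tested: 5 were higher with the first siRNA (0.0436%) and 15 lower (0.131%). Their changes were between 1.58-fold and 3.16-fold, their groups did not overlap, and both KD1 arrays carried each of the 20. That last count is partly built into the test, which favours genes on which replicates are alike; 20.1% of all genes tested lay lower on both KD1 arrays than on both scrambled siRNA arrays, and 18.1% lay higher. An unadjusted p under 0.05 was reached by 1053 genes (9.19%). The set of calls rests on all 4 arrays: 0 genes passed without KD1 1, 1 passed without KD1 2 (BIRC7, which is not among the 20), and 0 passed without either scrambled siRNA array, although all 20 kept their direction in each case. Scaling each array to its median in place of quantile normalisation gave 1 higher and 32 lower genes and moved the median of all genes to -0.23.

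**Figure D1:**
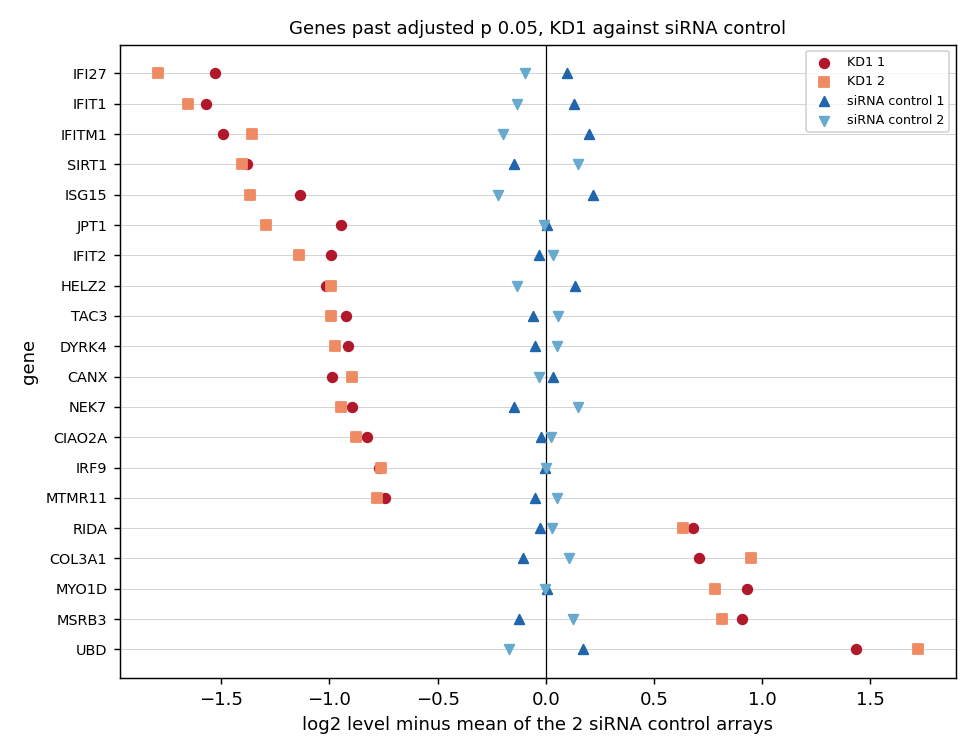
Level of each of the 20 genes past an adjusted p of 0.05 on the KD1 arrays (red circles and orange squares) and the scrambled siRNA arrays (blue triangles), as log2 level minus the mean of both scrambled siRNA arrays. On each gene the KD1 arrays lie on one side of both scrambled siRNA arrays; IFI27 is the lowest and UBD the highest.

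Of the lists of interferon effectors and interferon signalling genes, 7 members were among the 20, all lower. UBD, which interferon gamma also induces and which is in neither list, was higher and is described below. IFI27, a small interferon-induced membrane protein, stood at 6.59 and 6.32 on the KD1 arrays, against 8.21 and 8.02 on the scrambled siRNA arrays. It was 3.16-fold lower (log2 fold change -1.66, SE 0.18, adjusted p = 0.0140). IFIT1, which binds viral RNA lacking the host cap methylation, stood at 7.34 and 7.26 with KD1, against 9.04 and 8.78 with scrambled siRNA, a 3.05-fold difference (log2 fold change -1.61, SE 0.17, adjusted p = 0.0140). On both genes the KD1 arrays were well below both scrambled siRNA arrays, and on both KD1 2 was the lower KD1 array. IFITM1, a membrane protein that restricts virus entry, stood at 8.13 and 8.27 with KD1, against 9.82 and 9.42 (2.68-fold lower, adjusted p = 0.0331). ISG15, a ubiquitin-like modifier, stood at 10.13 and 9.89 with KD1, against 11.48 and 11.04 (2.38-fold lower, adjusted p = 0.0472). These are the 4 genes whose promoters are printed above.

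IFIT2, related to IFIT1, stood at 6.25 and 6.10 on the KD1 arrays, against 7.21 and 7.27 (2.10-fold lower, adjusted p = 0.0140). HELZ2, an interferon-induced helicase, stood at 8.58 and 8.60 with KD1, against 9.73 and 9.46 (2.01-fold lower, adjusted p = 0.0477). IRF9, the DNA-binding partner in ISGF3, stood at 9.03 and 9.04 with KD1, against 9.80 and 9.81 (1.70-fold lower, adjusted p = 0.0472). The vector arrays averaged 7.04 on IFI27, 7.77 on IFIT1, 8.64 on IFITM1, 10.46 on ISG15, 7.05 on IFIT2, 8.91 on HELZ2 and 9.19 on IRF9, between the KD1 and scrambled siRNA means of each gene. On IFIT2, HELZ2 and IRF9 both KD1 arrays lay below both scrambled siRNA arrays, and the arrays within each group lay closest together on IRF9.

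Over the whole list of interferon-induced antiviral effectors, 33 of 45 genes could be tested. Of these, 6 were called lower and 0 higher, beside 0.131% of all genes called lower. By limma, 24 had an unadjusted p under 0.05 and lay lower, beside 623 of all 11458 genes. The median log2 fold change was -0.56, against -0.01 over all genes tested, and 30 of 33 members were below 0 (50.9% of all genes). On KD1 1 the list's median deviation was -0.41 and on KD1 2 it was -0.73. Both arrays carried 22 members, KD1 2 mainly carried 10 and KD1 1 mainly carried 1. KD1 1 lay below both scrambled siRNA arrays on 28 members and KD1 2 on 30, beside 36.1% and 40.3% of all genes. The median was between -0.78 and -0.31 under the scalings tried. With the second siRNA, which shares the scrambled siRNA arrays, the list's median was -0.59, and the scrambled siRNA arrays lay above the vector arrays on the list by a median of 0.22. The list was drawn up with earlier results of these arrays known.

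Members that missed the threshold included MX1, a GTPase that blocks virus replication, at 7.90 and 7.41 with KD1, against 8.91 and 8.59 (log2 fold change -1.09, adjusted p = 0.11). OAS3, a sensor that activates RNase L, stood at 7.17 and 7.45 with KD1, against 8.17 and 8.34 (log2 fold change -0.94, adjusted p = 0.0714). Both groups were separate on these 2 genes. TNFSF10, the death ligand TRAIL, was detected on both scrambled siRNA arrays (6.56 and 6.78) and on neither KD1 array (4.77 and 5.12), so it was at least 2.14-fold lower (adjusted p = 0.0701). ISG20, an antiviral exonuclease, was the member carried mainly by KD1 1, at 6.77 on KD1 1 and 7.58 on KD1 2, against 8.39 and 8.31. PARP9 was carried mainly by KD1 2, at 7.55 on KD1 1 and 6.75 on KD1 2, against 7.85 on both scrambled siRNA arrays. The 3 members above 0 were XAF1, IFI44L and DTX3L, at 0.22, 0.30 and 0.13; IFI44L was detected on none of the 4 arrays.

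**Figure D2:**
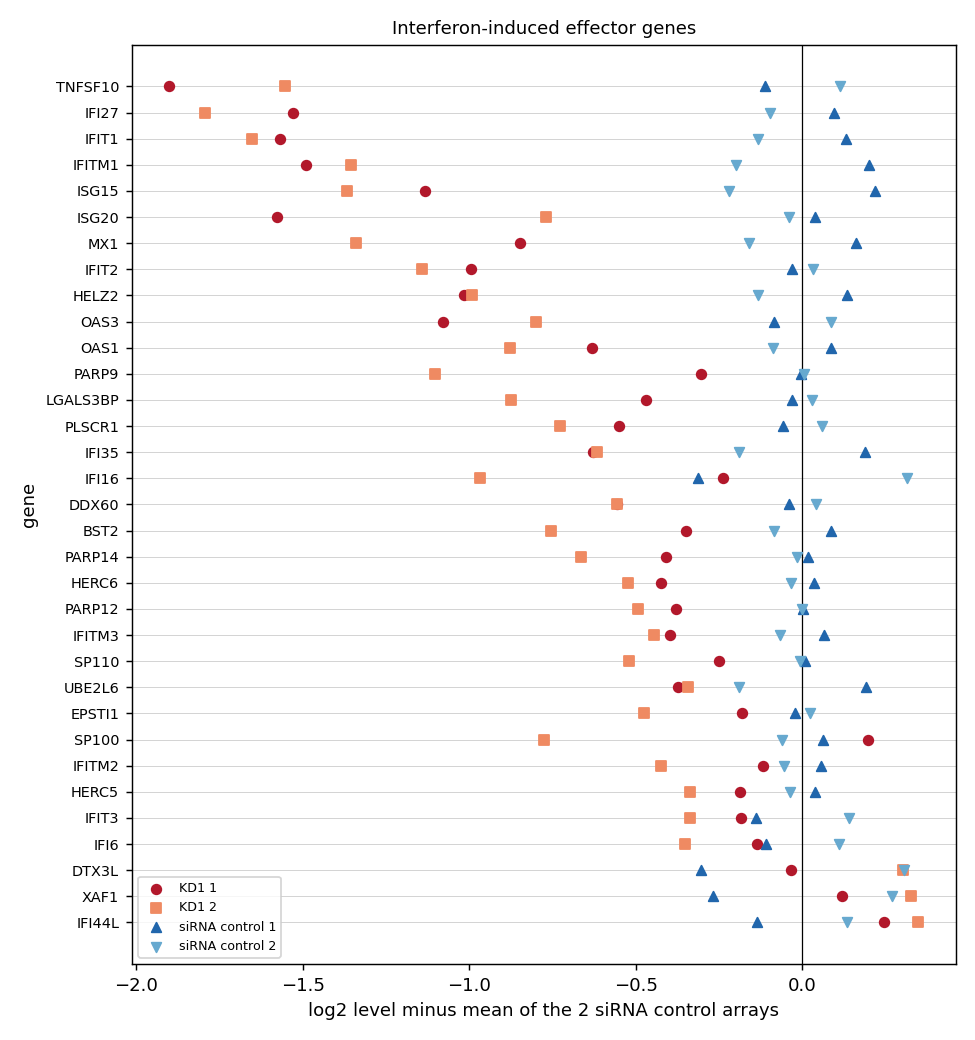
The 33 tested interferon-induced effector genes, as log2 level minus the mean of both scrambled siRNA arrays. Most members lie below 0 on both KD1 arrays, with KD1 2 the lower array for many, and 30 of 33 log2 fold changes are negative.

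Upstream of these effectors, counts of calls stand beside 0.131% of all genes called lower. Of 15 tested receptors, kinases and transcription factors of the interferon pathway, 1 was called lower (IRF9) and 0 higher, and the median was -0.05. Of 12 tested sensors of foreign RNA and their adaptors, 0 were called and the median was -0.01. By limma, 2 of 12 had an unadjusted p under 0.05, both lower, beside 623 lower genes among all 11458. IFIH1, which encodes MDA5, stood at 6.99 and 6.51 with KD1, against 7.46 and 7.45 (log2 fold change -0.71, adjusted p = 0.20). TRIM25, a ubiquitin ligase in RIG-I signalling, stood at 6.74 and 7.11 with KD1, against 7.74 and 7.52 (log2 fold change -0.70, adjusted p = 0.35). Of 17 tested genes of MHC class I antigen presentation, 1 was called lower (CANX) and the median was -0.12.

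Besides SIRT1 and the interferon genes, 7 genes were lower. CANX, calnexin, a chaperone of glycoproteins in the endoplasmic reticulum, stood at 8.82 and 8.91 with KD1, against 9.84 and 9.77 (1.92-fold lower, adjusted p = 0.0331), and its other probe gave -0.96 beside -0.94. JPT1, a microtubule-associated protein, stood at 8.10 and 7.75 with KD1, against 9.05 and 9.04 (2.17-fold lower, adjusted p = 0.0331). CIAO2A, of the cytosolic iron-sulfur protein assembly, stood at 10.84 and 10.79 with KD1, against 11.64 and 11.69 (1.80-fold lower, adjusted p = 0.0331). Its other probe gave -0.66 beside -0.85. On each of these 3 genes both KD1 arrays lay below both scrambled siRNA arrays.

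NEK7, a kinase of mitosis and of NLRP3 inflammasome assembly, stood at 6.62 and 6.56 with KD1, against 7.36 and 7.66 (1.89-fold lower, adjusted p = 0.0477). Its probes disagreed, since the other gave a log2 fold change of -0.09. DYRK4, a protein kinase, stood at 6.52 and 6.46 with KD1, against 7.38 and 7.48 (1.92-fold lower, adjusted p = 0.0472). MTMR11, of the myotubularin family, stood at 6.26 and 6.22 with KD1, against 6.95 and 7.05 (1.70-fold lower, adjusted p = 0.0436). TAC3, the precursor of neurokinin B, stood at 5.63 and 5.56 with KD1, against 6.49 and 6.61 (1.94-fold lower, adjusted p = 0.0472); it was detected on 1 of the KD1 arrays.

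The 5 higher genes were led by UBD, the ubiquitin-like protein FAT10, which inflammatory cytokines induce. UBD stood at 8.37 and 8.65 on the KD1 arrays, against 7.10 and 6.76 on the scrambled siRNA arrays, 2.98-fold higher (log2 fold change 1.58, SE 0.23, adjusted p = 0.0436). COL3A1, a fibrillar collagen chain, stood at 8.52 and 8.76 with KD1, against 7.70 and 7.92 (1.78-fold higher, adjusted p = 0.0472). MYO1D, a membrane-binding myosin, stood at 9.48 and 9.33 with KD1, against 8.55 and 8.54 (1.81-fold higher, adjusted p = 0.0472). The vector arrays averaged 7.33 on UBD, 8.15 on COL3A1 and 9.40 on MYO1D, the last close to the KD1 mean of 9.40 and above the scrambled siRNA mean of 8.55. The 2 KD1 arrays were higher than scrambled siRNA on all 3 genes, KD1 2 being the higher array on UBD and COL3A1 and KD1 1 on MYO1D. MSRB3, a methionine sulfoxide reductase, stood at 6.67 and 6.59 with KD1, against 5.64 and 5.90 (1.82-fold higher, adjusted p = 0.0472). RIDA, which deaminates reactive enamines and imines, stood at 10.61 and 10.56 with KD1, against 9.91 and 9.96 (1.58-fold higher, adjusted p = 0.0472), and its other probe gave 0.57 beside 0.66. The vector arrays averaged 6.44 on MSRB3 and 10.32 on RIDA, between the scrambled siRNA and KD1 means of each gene.

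Genes just outside the threshold were also carried by both arrays, and are given as values without a call. Among the lower ones, CDK2, the kinase of S phase entry, stood at 9.93 and 9.70 with KD1, against 10.62 and 10.63 (log2 fold change -0.81, adjusted p = 0.0509). CEACAM1, an epithelial adhesion molecule, stood at 7.66 and 7.95 with KD1, against 8.87 and 9.16 (log2 fold change -1.21, adjusted p = 0.0701). TXNIP, the thioredoxin-binding protein, stood at 9.85 and 9.55 with KD1, against 10.45 and 10.71 (log2 fold change -0.88, adjusted p = 0.0676). On all 3 the groups were separate. ALOX5AP, the activating protein of leukotriene synthesis, had a log2 fold change of -1.06, CDK19 of the Mediator kinase module -0.83, TMEM158 -0.87 and the palmitoyltransferase ZDHHC13 -0.70, with adjusted p-values of 0.0579 to 0.0619.

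Among the higher ones, CYBRD1, the duodenal ferric reductase, stood at 7.84 and 7.90 with KD1, against 7.20 and 6.95 (log2 fold change 0.79, adjusted p = 0.0714). PDGFRA, a growth factor receptor of mesenchymal cells, stood at 9.60 and 9.44 with KD1, against 8.63 and 8.92 (log2 fold change 0.74, adjusted p = 0.0749). The groups were separate on both. COL4A6 had a log2 fold change of 0.81, TULP3 0.94, MT4 0.99, the tRNA methyltransferase TRMT11 0.79, the lysosomal LAPTM4B 0.61 and the RNA-binding TAF15 0.62, with adjusted p-values of 0.0701 to 0.0743. In all, 24 uncalled genes had an adjusted p under 0.1, 10 higher and 14 lower.

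By size alone, 453 genes (3.95%) differed by 1.5-fold or more, 128 higher and 325 lower. Of the higher ones, 100 were carried by both KD1 arrays, 16 mainly by KD1 1 and 12 mainly by KD1 2. Of the lower ones, 187 were carried by both, 101 mainly by KD1 1 and 37 mainly by KD1 2. The 101 genes that were low mainly on KD1 1 included 9 of the hypoxia or glycolysis lists and 1 of the interferon effectors, while the 187 carried by both included 0 and 13. Among the 11458 genes tested, the hypoxia, glycolysis and interferon effector lists held 26, 20 and 33 members. A stricter rule, with the smaller deviation at least 0.67 times the larger, left 189 of the 287 genes carried by both.

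**Figure D3:**
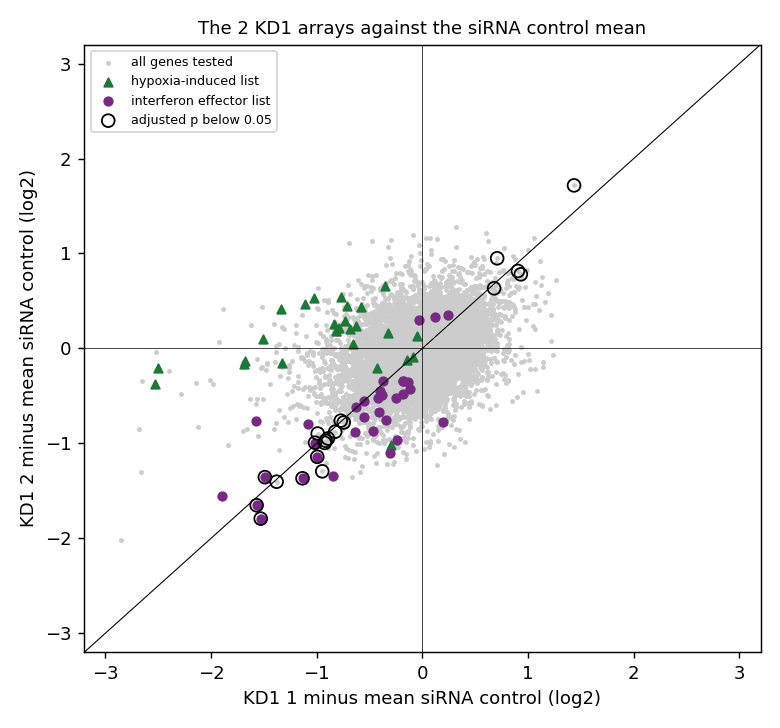
Deviation of KD1 1 (horizontal) and KD1 2 (vertical) from the mean of both scrambled siRNA arrays, in log2 units, for all genes tested (grey), hypoxia-induced genes (green triangles), interferon effectors (purple) and the 20 called genes (open circles). The called genes lie near the diagonal, and the hypoxia-induced genes lie to the left, low on KD1 1. Most of them are near or above 0 on KD1 2. KD1 2 lay below both scrambled siRNA arrays on 6 of 26, CA12 among them at -1.02.

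The genes on which the KD1 arrays differed most were of 2 kinds. Of the 8 with the largest excess on KD1 2, 5 were detected on both KD1 arrays, with gaps of 1.96 to 2.49 on the log2 scale. ENO2, a neuronal enolase that hypoxia induces, stood at 7.00 on KD1 1 and 9.49 on KD1 2, against 9.76 and 9.29 on the scrambled siRNA arrays. ANKRD37 stood at 9.28 and 11.58, against 12.09 and 11.48. LOX, which crosslinks collagen and is also induced by hypoxia, stood at 8.46 and 10.61, against 11.12 and 10.86. KD1 2 lay between the scrambled siRNA arrays on ENO2 and ANKRD37 and below both on LOX, and KD1 1 was far lower on all 3. A gap on these 3 genes was not particular to KD1, since the KD2 arrays also lay apart on them, though by less. KD2 2 and KD2 3 stood at 8.67 and 10.05 on ENO2, 10.70 and 12.04 on ANKRD37 and 10.29 and 11.35 on LOX. NPPB, a natriuretic peptide, was likewise low on KD1 1, at 8.04 and 10.20, against 10.73 and 10.15, as was CYP26A1, a retinoic acid hydroxylase, at 6.95 and 9.25, against 8.99 and 8.68. The other probe of CYP26A1 was dimmer and did not show this gap, at 5.00 on KD1 1 and 5.47 on KD1 2, against 5.62 and 5.00. BIRC7, an inhibitor of apoptosis, NRN1 and GABRE, a GABA receptor subunit, were each detected on KD1 2 and not on KD1 1 by the probe used. The other probe of GABRE disagreed, at 5.90 on KD1 1 and 5.8 on KD1 2, against 5.89 and 5.93. The 8 with the largest excess on KD1 1 were dimmer: ANKRD35, H2AC17, SNORD30, SNORD33, SUSD5, USP46, SNORA9 and CHD3 were each detected on KD1 1 and not on KD1 2 by the probe used, with gaps of 1.33 to 1.52. The probes of USP46 disagreed, with a log2 fold change of -0.55 for the one used and 0.49 for the other, which stood at 6.77 on KD1 1 and 6.44 on KD1 2, against 6.28 and 5.95.

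The list of hypoxia-induced genes, which the factor HIF switches on when oxygen is low, followed this split. Of 26 members tested, 0 were called (0.175% of all genes were). By limma, 4 had an unadjusted p under 0.05, all lower, beside 623 lower genes among all 11458. The median log2 fold change of -0.29 joined a median of -0.75 on KD1 1 with one of 0.18 on KD1 2. With the second siRNA the list's median was 0.03. KD1 1 lay below both scrambled siRNA arrays on 26 of 26 members, and KD1 2 on 6 and above both on 15, beside 36.1%, 40.3% and 33.2% of all genes. By the rule above, KD1 1 mainly carried 21 members, KD1 2 mainly carried 3 and both carried 2. The deviations had opposite signs on 17 members, beside 4566 of all 11458 genes. The scrambled siRNA arrays themselves lay above the vector arrays on this list, by a median of 1.61 on the log2 scale, while the median over all genes was -0.01; transfection type and any other difference between those cultures cannot be told apart.

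NDRG1, a hypoxia-induced stress gene, stood at 11.31 on KD1 1 and 12.92 on KD1 2, against 12.96 and 12.67. P4HA2, a collagen prolyl hydroxylase, stood at 9.68 and 11.20, against 11.53 and 11.20. DDIT4, an inhibitor of mTORC1, stood at 11.25 and 12.56, against 12.06 and 11.99. KD1 1 was low on all 3, while KD1 2 equalled or exceeded at least 1 scrambled siRNA array. The mean of the vector arrays was 10.39 for NDRG1, 9.26 for P4HA2 and 9.81 for DDIT4, so KD1 1 lay between the vector and scrambled siRNA levels. VEGFA, the angiogenic growth factor, stood at 7.29 on KD1 1 and 8.16 on KD1 2, against 8.06 and 7.78. CA12, a carbonic anhydrase, was among the exceptions, being lower on KD1 2 (4.93, not detected) than on KD1 1 (5.65), against 5.67 and 6.23.

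Most glycolysis genes split the same way. Of 20 members tested 0 were called (0.175% of all genes were). The median was -0.09, with -0.30 on KD1 1 and 0.07 on KD1 2. KD1 1 lay below both scrambled siRNA arrays on 16 of 20 members and KD1 2 on 4, beside 36.1% and 40.3% of all genes. HK2, a hexokinase, stood at 8.84 on KD1 1 and 10.24 on KD1 2, against 10.33 and 10.12. ALDOC, an aldolase, stood at 11.02 and 12.53, against 12.52 and 12.12. PGK1, phosphoglycerate kinase, stood at 12.16 and 12.53, against 12.92 and 12.62. On these genes too KD1 1 was the low array, with PGK1 the narrowest of the 3 gaps. By limma, 2 members had an unadjusted p under 0.05 and lay higher, and 1 lay lower, beside 430 and 623 of all 11458 genes. The 2 higher ones were PFKM and LDHB, on which both KD1 arrays lay above both scrambled siRNA arrays. PFKM stood at 9.97 on KD1 1 and 9.83 on KD1 2, against 9.74 and 9.20. LDHB stood at 13.27 and 13.32, against 12.81 and 13.09.

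**Figure D4:**
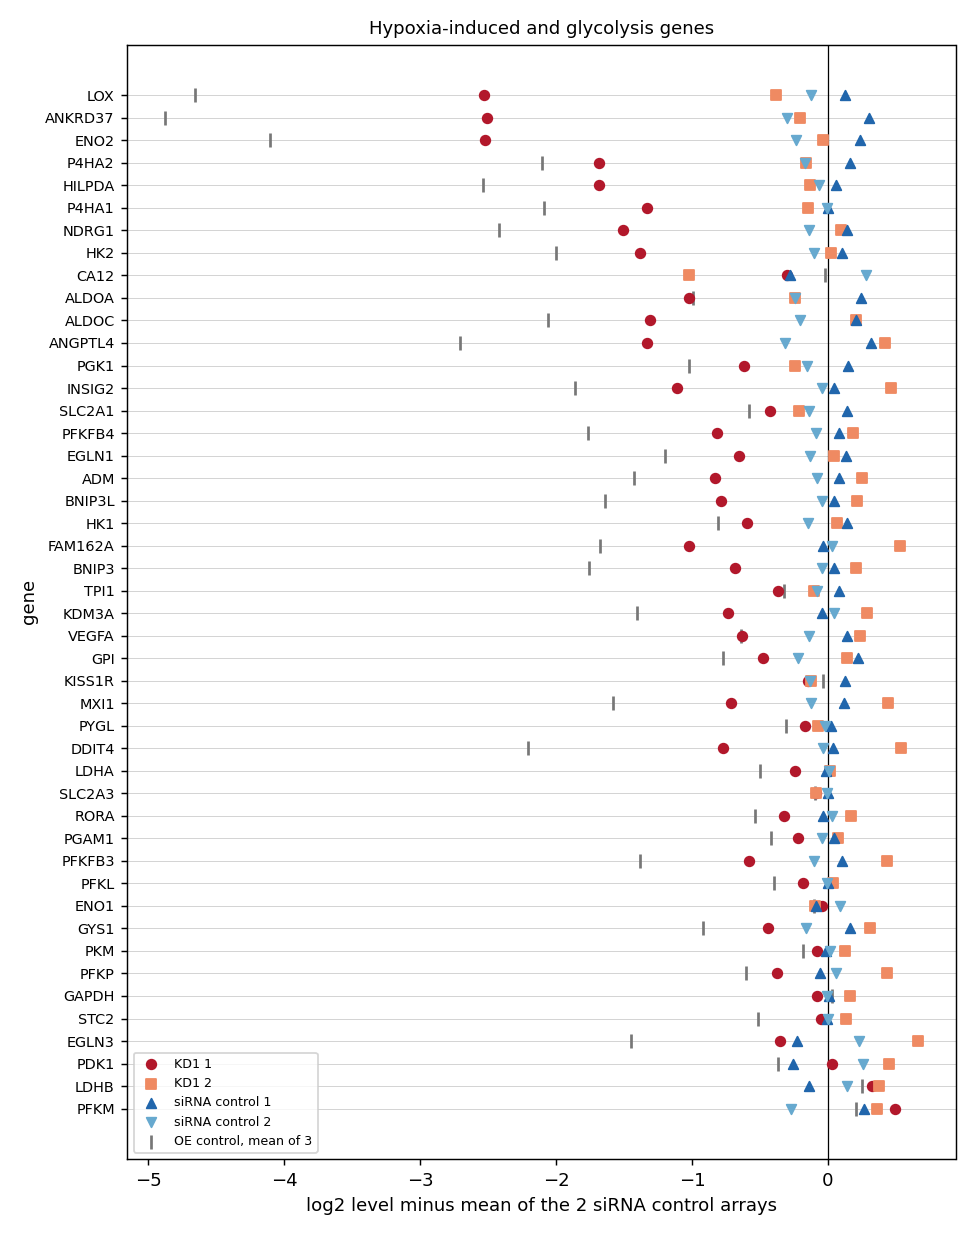
The tested hypoxia-induced and glycolysis genes, as log2 level minus the mean of both scrambled siRNA arrays; grey bars mark the mean of the 3 vector arrays (OE control). KD1 1 (red circles) lies to the left of both scrambled siRNA arrays for most genes, and KD1 2 (orange squares) lies near 0 or to the right.

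Other stress and signalling lists had few or no calls, beside 0.175% of all genes called. Immediate early genes, which growth signals and stress switch on within minutes, had a median of -0.37 over 24 members, with -0.50 on KD1 1 and -0.18 on KD1 2; 0 were called and 8 had an unadjusted p under 0.05, all lower, beside 623 lower genes among all 11458. DUSP5, a phosphatase of ERK, stood at 9.31 and 9.59 with KD1, against 10.17 and 10.16 (log2 fold change -0.71, adjusted p = 0.12), and EGR1, a transcription factor, at 7.95 and 8.01, against 8.46 and 8.60 (-0.55, adjusted p = 0.28). Both KD1 arrays were below both scrambled siRNA arrays on these 2 genes. The list's median was between -0.59 and -0.17 under the scalings tried.

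For the next lists, counts of calls stand beside 0.175% of all genes called, 0.0436% higher and 0.131% lower. NF-kB target and feedback genes, which p65 controls, had 1 call (UBD) among 18 and a median of 0.04. That median turned to -0.21 under median scaling, where the median of all genes was -0.23. KD1 2 lay above both scrambled siRNA arrays on 13 of 18 members and KD1 1 on 6, beside 33.2% and 39.1% of all genes. CXCL1, a neutrophil chemokine singled out after its values were seen, was detected on both KD1 arrays (6.24 and 6.35) and on neither scrambled siRNA array (5.22 and 5.15). It was at least 1.76-fold higher, with an adjusted p of 0.0893. Of 20 tested transcription factors and cofactors known as SIRT1 substrates or partners, 0 were called and the median was 0.01. PER2, a clock repressor, stood at 7.80 and 7.69 with KD1, against 8.41 and 8.46 (log2 fold change -0.69, adjusted p = 0.0701). Among p53 target genes 0 of 19 were called and the median was -0.19; CDKN1A, the cell cycle inhibitor p21, stood at 8.71 and 8.80, against 9.68 and 9.43 (log2 fold change -0.80, adjusted p = 0.20). FOXO targets had 0 calls among 17 and a median of -0.10. Sirtuins and NAD genes had 1 call, SIRT1 itself, among 18.

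In lists of epithelial and mesenchymal function, counts of calls stand beside 0.175% of all genes called, 0.0436% higher and 0.131% lower. Of 27 tight junction and adhesion genes 0 were called and the median was -0.12. CLDN7 stood at 10.14 and 10.27 on the KD1 arrays, against 10.85 and 10.66 (log2 fold change -0.54, adjusted p = 0.14). Drug-metabolising enzymes and transporters had 0 calls among 30 and a median of -0.23, with medians of -0.20 on KD1 1 and -0.27 on KD1 2. Both arrays carried 11 members, KD1 1 mainly carried 9 and KD1 2 mainly carried 10. The deviations had opposite signs on 9 of 30 members, beside 4566 of all 11458 genes, so that count does not set the list apart. GSTA1, a glutathione transferase, stood at 9.92 on KD1 1 and 9.23 on KD1 2, against 10.42 and 10.75 (log2 fold change -1.01, adjusted p = 0.13), carried mainly by KD1 2. Brush border genes had 1 call (MYO1D, higher) among 21, but the list's median was -0.14 and 15 members were below 0 (50.9% of all genes were). The apolipoprotein APOA4, singled out after its values were seen, stood at 5.84 on KD1 1 and 7.21 on KD1 2, against 8.49 and 8.52 (log2 fold change -1.98, adjusted p = 0.14, carried mainly by KD1 1). Collagen genes had 1 call (COL3A1) among 18. In the mesenchymal and contractile list 0 of 19 were called, and 12 were above 0 and 7 below (50.9% of all genes were below). The list's median of 0.09 turned to -0.14 under median scaling. TAGLN, an actin-binding protein, stood at 10.60 and 10.57, against 9.97 and 9.85 (log2 fold change 0.68, adjusted p = 0.19), and S100A4, a calcium-binding protein, stood at 11.68 and 11.72, against 11.94 and 12.06 (-0.30, adjusted p = 0.37). On CLDN7, TAGLN, APOA4 and S100A4 both KD1 arrays lay outside the scrambled siRNA range.

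In lists of metabolism and proliferation 0 genes were called, beside 0.175% of all genes. The medians were 0.05 over 33 respiratory chain subunits, 0.09 over 37 DNA replication genes, 0.04 over 33 mitosis genes, -0.03 over 25 cholesterol and fatty acid synthesis genes and 0.01 over 44 ribosomal proteins. The first 3 turned negative under median scaling, to -0.09, -0.13 and -0.18, each above the -0.23 of all genes there. Mitosis genes differed between the KD1 arrays: KD1 1 lay above both scrambled siRNA arrays on 20 of 33 and KD1 2 below both on 19, beside 39.1% and 40.3% of all genes. Respiratory chain genes lay above both on 20 of 33 with KD1 1 and on 9 with KD1 2, beside 39.1% and 33.2% of all genes. The RNA interference machinery had 0 calls among 13. Of 6 tested metallothioneins all had positive log2 fold changes and 0 were called, and their median of 0.20 turned to -0.04 under median scaling; MT1G stood at 8.24 and 7.79 with KD1, against 7.18 and 7.06 (log2 fold change 0.90, adjusted p = 0.27). Of the remaining lists, 0 of 19 ATF4 amino acid stress genes (median -0.08), 0 of 27 lysosome and autophagy genes (-0.09), 0 of 15 circadian clock genes (-0.08), 0 of 17 epithelial markers (-0.09) and 0 of 6 leukocyte markers (-0.25) were called. Endoplasmic reticulum chaperones had CANX as 1 call among 17 and fibroblast markers had COL3A1 as 1 call among 9, and Wnt target and stem cell genes had 0 among 18. The medians of these last 3, at 0.06, 0.10 and 0.07, turned to -0.17, -0.12 and -0.15 under median scaling.

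**Figure D5:**
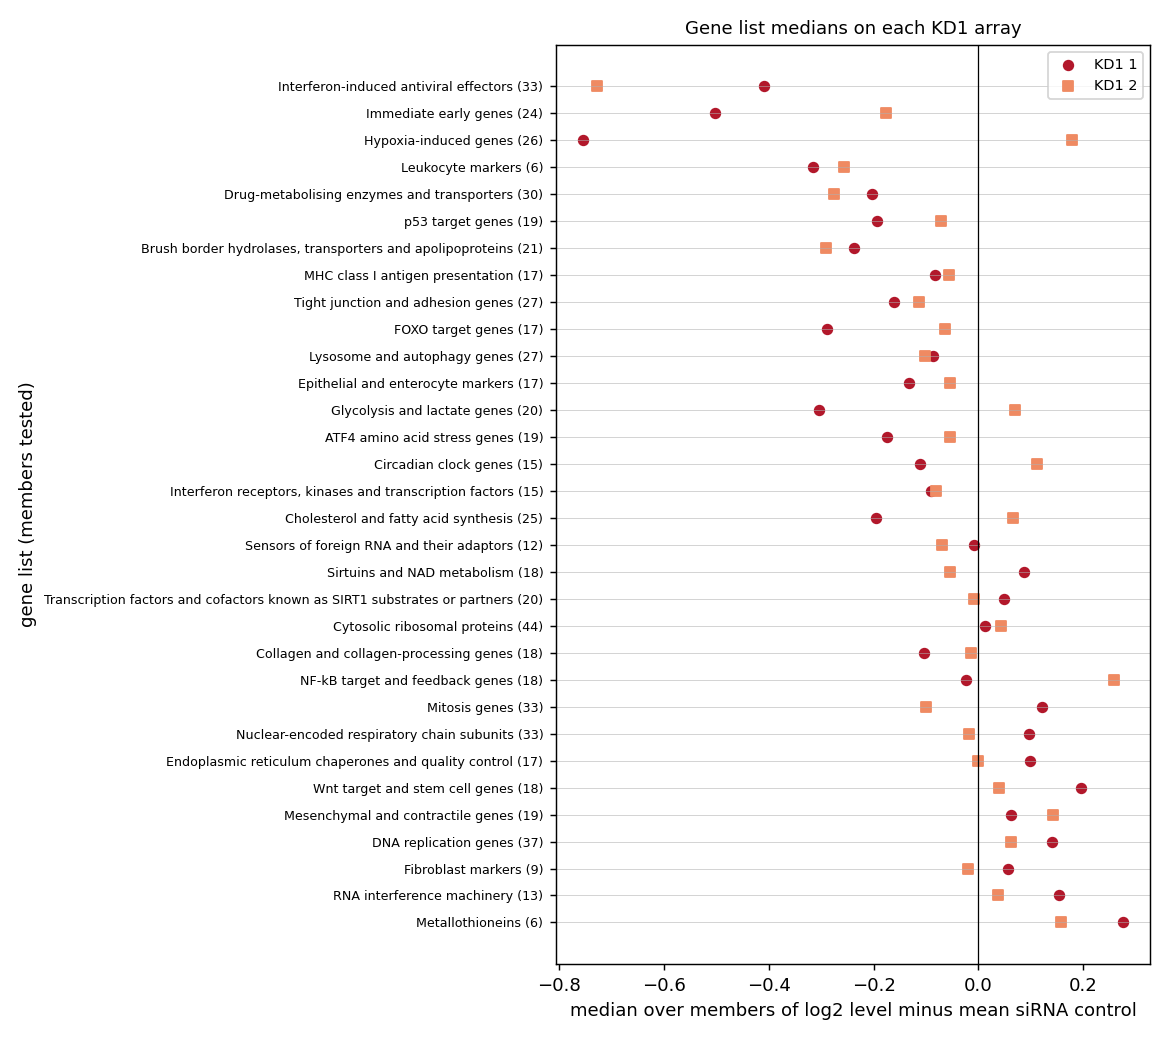
Median deviation of each gene list on KD1 1 (red circles) and KD1 2 (orange squares) from the mean of both scrambled siRNA arrays, in log2 units, with the number of members tested. Interferon effectors are low on both arrays, and hypoxia-induced genes are at -0.75 on KD1 1 and 0.18 on KD1 2.

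A direct contrast of the first with the second SIRT1 siRNA, in which the scrambled siRNA arrays cancel, called 71 genes (0.62%), 52 higher with KD1 (0.454%) and 19 lower (0.166%). Of the 20 genes above, 6 were among them. DYRK4 stood at 6.52 and 6.46 with KD1, against 7.73 and 7.78 with KD2 (difference -1.27, SE 0.15, adjusted p = 0.0108). JPT1 stood at 8.10 and 7.75 with KD1, against 9.17 and 8.86 with KD2 (difference -1.09, adjusted p = 0.0171), and NEK7 at 6.62 and 6.56, against 7.73 and 7.42 (-0.99, adjusted p = 0.0229). All 3 were low with the first siRNA. CANX stood at 8.82 and 8.91 with KD1, against 9.65 and 9.58 with KD2 (difference -0.75, adjusted p = 0.0309). MSRB3 stood at 6.67 and 6.59 with KD1, against 5.58 and 5.77 with KD2 (difference 0.95, adjusted p = 0.0171), and UBD at 8.37 and 8.65, against 6.97 and 7.55 (1.25, adjusted p = 0.0451).

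The interferon genes did not pass this contrast. IFI27 differed by 0.53 (SE 0.18, adjusted p = 0.29), at 6.59 and 6.32 with KD1, against 5.96 and 5.88 with KD2. IFIT1 differed by -0.13 (SE 0.17, adjusted p = 0.80) and ISG15 by -0.15 (SE 0.20, adjusted p = 0.81). SIRT1 differed by -0.18 (SE 0.22, adjusted p = 0.79). The KD1 arrays enter both this contrast and the one against scrambled siRNA, so the 2 are not independent. Without KD1 1, 1 gene passed this contrast (ITGA2), without KD1 2 10 passed, and without KD2 3 0 passed.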

How the data were processed

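Per the labels' protocols, RNA of Caco-2 cells was purified by Trizol and column and amplified to biotin-labelled cRNA; arrays were read with GenomeStudio 2010.1, per the submitters' processing notes. The authors deposited raw intensity values for 47323 probes without normalization. Beside each intensity the authors deposited a detection column, a fraction stored as 1 minus the detection p. The authors also deposited normalised log2 values, by a method not given in the sources used here. No file gives a slide or scan date.

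Raw intensities were background-corrected, quantile-normalised and log2-transformed with neqc of limma 3.58.1 (R 4.3.3, offset 16). Probes with a detection p under 0.01 on at least 2 of the 12 arrays were kept (19263), of which 15104 had 1 gene symbol in GEO's platform annotation and 4159 had several or none. The probe with the highest mean stood for each of 11458 genes. One limma fit with a mean per group over all 12 arrays (7 residual degrees of freedom) gave two-sided moderated tests, adjusted by the Benjamini-Hochberg method over all genes with a threshold of 0.05; 2 arrays per group limit the precision. A fold bound for a gene detected in 1 group only used the lowest signal detected on each array of the other. Promoters were matched by symbol to RefSeq. The script was tested on simulated data. Alternatives changed the scaling, background correction, filter, probe rule, variance model and samples.

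The comparison and gene lists were chosen with earlier results of these data known. Named genes were SIRT1, every called gene, the 8 per direction with the next smallest p, the 8 per direction on which the KD1 arrays differed most and up to 4 per list, plus members of the interferon, hypoxia and glycolysis lists. KD1 and scrambled siRNA arrays share the numbers 1 and 2, and the labels do not say whether a number marks a shared culture or day. Same-numbered arrays did not deviate together (r = -0.02 across genes), but 2 arrays per group cannot settle whether they were paired. The main fit used no pairing, and the replicate number as a block was an alternative.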

Additional observations from a re-analysis of the deposited data

Results flagged for a closer look

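The results here were picked out because the change with the first SIRT1 siRNA differed from that with the second, by a limma test of KD1 minus KD2 with adjusted p under 0.05. Among the named genes, 6 were lower with KD1. DYRK4 differed by -1.27 (adjusted p = 0.0108), JPT1 by -1.09 (0.0171), ALOX5AP by -1.01 (0.0359), NEK7 by -0.99 (0.0229), CDK19 by -0.83 (0.0314) and CANX by -0.75 (0.0309). ALOX5AP averaged 6.60 with KD1 and 7.61 with KD2, and CDK19 averaged 8.51 with KD1 and 9.34 with KD2. For NEK7 the value comes from 1 probe, and its other probe showed little difference from scrambled siRNA.

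The other 5 were higher with KD1. MSRB3 differed by 0.95 (adjusted p = 0.0171), PDGFRA by 0.96 (0.0171), CYBRD1 by 1.21 (0.0108), UBD by 1.25 (0.0451) and SOX2, a transcription factor of progenitor cells, by 1.27 (0.0495). CYBRD1 averaged 7.87 with KD1 and 6.66 with KD2, against a scrambled siRNA level between them. SOX2 averaged 8.44 with KD1 and 7.17 with KD2, and these means likewise lay on opposite sides of the scrambled siRNA mean, at 0.55 with KD1 and -0.72 with KD2. Neither change was called against scrambled siRNA by limma (adjusted p = 0.53 and 0.24). The KD2 arrays stood at 7.56 and 6.77 on SOX2, against 7.62 and 8.15 with scrambled siRNA, so KD2 2 lay close to 1 of them. These differences did not hold in every alternative: 0 genes passed this contrast without KD2 3, with the siRNA arrays alone or with the replicate number as a block, and 1 passed with median scaling (ITGA2, which is not among these 11) and without KD1 1 (also ITGA2).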

How the results depend on the processing

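All 20 called genes kept their direction under each alternative tried for them. The number called against scrambled siRNA was 20; it was 75 with the authors' normalised values (21 higher, 54 lower), 66 without background correction, 77 with trended and robust variances, 33 with median scaling, 3 without a detection filter (IFI27, IFIT1 and IFIT2), 0 with the siRNA arrays alone (821 with an unadjusted p under 0.05) and 2 with the replicate number as a block (IFI27 and IFIT1). Leaving out 1 array gave 0 to 1. Of the 20, 17 were still called with the authors' values, without background correction and with trended variances, and 10 with median scaling. The 3 lost in each of the first settings were MSRB3, MTMR11 and TAC3, at 0.31, -0.33 and -0.33 with the authors' values; there IFI27 was at -0.92, IFIT2 at -0.48, DYRK4 at -0.47, NEK7 at -0.47 and UBD at 0.98, all still called. For KD1 against KD2, the 71 calls became 162 with the authors' values, 134 without background correction, 162 with trended variances, 1 with median scaling, 0 with the siRNA arrays alone and 0 with the replicate block; leaving out 1 array gave 0 to 67. SIRT1 was at -0.94 with the authors' values, -1.004 without background correction and -1.64 with median scaling, called in each; it stayed at -1.39 and missed the threshold without a filter (adjusted p = 0.0702), with the siRNA arrays alone (0.441) and with the block (0.136); leaving out 1 array gave -1.54 to -1.24. The stricter rule gave 189 genes carried by both arrays in place of 287. A sign changed without KD1 1 for CENPF (-0.0138; leaving out 1 array gave up to 0.639) and INSIG1 (0.00328; down to -0.497), with median scaling for MT1F (-0.00212), MT2A (-0.0726), NDUFA6 (-0.00274), SDHA (-0.0693), SOX4 (-0.0291) and UQCRB (-0.0705), and with the mean of probes for SDHA (-0.0928); these genes were not called. The cause of these shifts was not tested, except that fewer arrays or more genes tested leave less power by construction. Genes near background have only bounds.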
